A study of Mus musculus with 18 samples.

Results

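Collagens are built from chains, each encoded by a gene of its own, and the 44 protein-coding collagen chain genes of the mouse were followed here through a glioma grown in 2 kinds of host. The chains were found by symbol, as every protein-coding gene named Col, a type number, the letter a and a chain number. They are 44 of the 48795 genes in the deposited table. By type, 11 chains are fibrillar, 6 are the type IV chains of basement membrane, 6 are the beaded type VI chains and 21 belong to other types. RNA was sequenced from the GL261 GFP line, mouse glioma cells that carry green fluorescent protein, and from the tumours it formed in symptomatic C57BL/6 mice, 6 of each host, that were digested with collagenase. The groups were unsorted cells of tumours from Pfp/Rag2-/- hosts, unsorted cells of tumours from WT hosts, sorted GFP- cells from WT tumours, sorted GFP+ cells from Pfp/Rag2-/- tumours, sorted GFP+ cells from WT tumours, and cultured GFP+ cells used for injection, with 3 libraries each. Pfp/Rag2-/- mice lack perforin, a killing protein of lymphocytes, and Rag2, which T and B cells need to form, and they keep their macrophages, microglia and vessels. All tumours came from the same injected line, and no GFP- cells of the Pfp/Rag2-/- host are among the samples. Nothing in the labels tells if 1 library came from 1 mouse or from several, so each p-value reflects library-to-library spread and may not cover variation between animals.

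Collagen molecules are triple helices of 3 chains, and which chains are made together decides which molecule can form. Fibrillar collagens of types I, II, III, V, XI and XXVII build fibrils, type IV forms the sheet network of basement membranes, type VI forms beaded filaments, and FACIT collagens (fibril-associated collagens with interrupted triple helices, among them types IX, XII and XVI) sit on fibrils or other matrix. Types II, IX and XI are best known from cartilage, types XV and XVIII are proteoglycans of basement membrane zones whose end fragments are restin and endostatin, and in the brain most fibrillar and type IV collagen is made by cells of vessels and meninges.

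Levels are normalized counts, which are read counts divided by 1 size factor per library, and recovered library totals were 19172814 to 21141662 reads. Of the 44 chains, 24 had a mean of at least 200 in at least 1 group, 20 did not, and 33 had a read in every library. Endothelial markers that were near 0 in culture (10 of 15, mean under 10) summed to 7.56 to 15.3 in cultured cells and to 5946 to 7340.5 in GFP- cells, and 11 of 12 macrophage and microglia markers chosen in the same way summed to 1.91 to 2.83 in culture and 306835 to 346260.0 in GFP- cells. The low culture sums follow from this choice of markers. All 15 endothelial markers, with Flt1 the highest in culture, summed to 2180 to 2341 in culture and 10296 to 13651 in GFP- cells. All 12 macrophage and microglia markers summed to 21.7 to 36.3 in culture and 318259 to 365811 in GFP- cells. GFP- library 3 stood apart: of the 21 chains with a WT GFP+ mean of at least 200 it was the highest GFP- library for 20. Over all 21 chains its values were 1.06 to 6.98 times the mean of libraries 1 and 2 (median 4.38). The 15 of these chains called lower in GFP- cells had a median of 12.6% of their mean WT GFP+ level in library 3, against 3.12% in library 1 and 3.37% in library 2. Perforin gene (Prf1) reads numbered 8, 15 and 18 in Pfp/Rag2-/- unsorted libraries and 118, 110 and 160 in WT unsorted libraries. In sorted GFP+ libraries they numbered 128, 6 and 1 for Pfp/Rag2-/- hosts and 123, 5 and 11 for WT hosts. Rag2 had 5, 7 and 4 reads in Pfp/Rag2-/- unsorted libraries and 5, 0 and 0 in Pfp/Rag2-/- GFP+ libraries. It had 0 in every WT library, so these reads alone go against the direction of the label. The 6 T cell markers summed to 46.2 to 95.1 in Pfp/Rag2-/- unsorted libraries, against 244 to 548 in WT unsorted ones. In sorted GFP+ libraries they summed to 24.8 to 121, against 28.5 to 292, with overlap. Gene counts do not show which exons were read, so they are no check of the alleles.

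**Figure D1:**
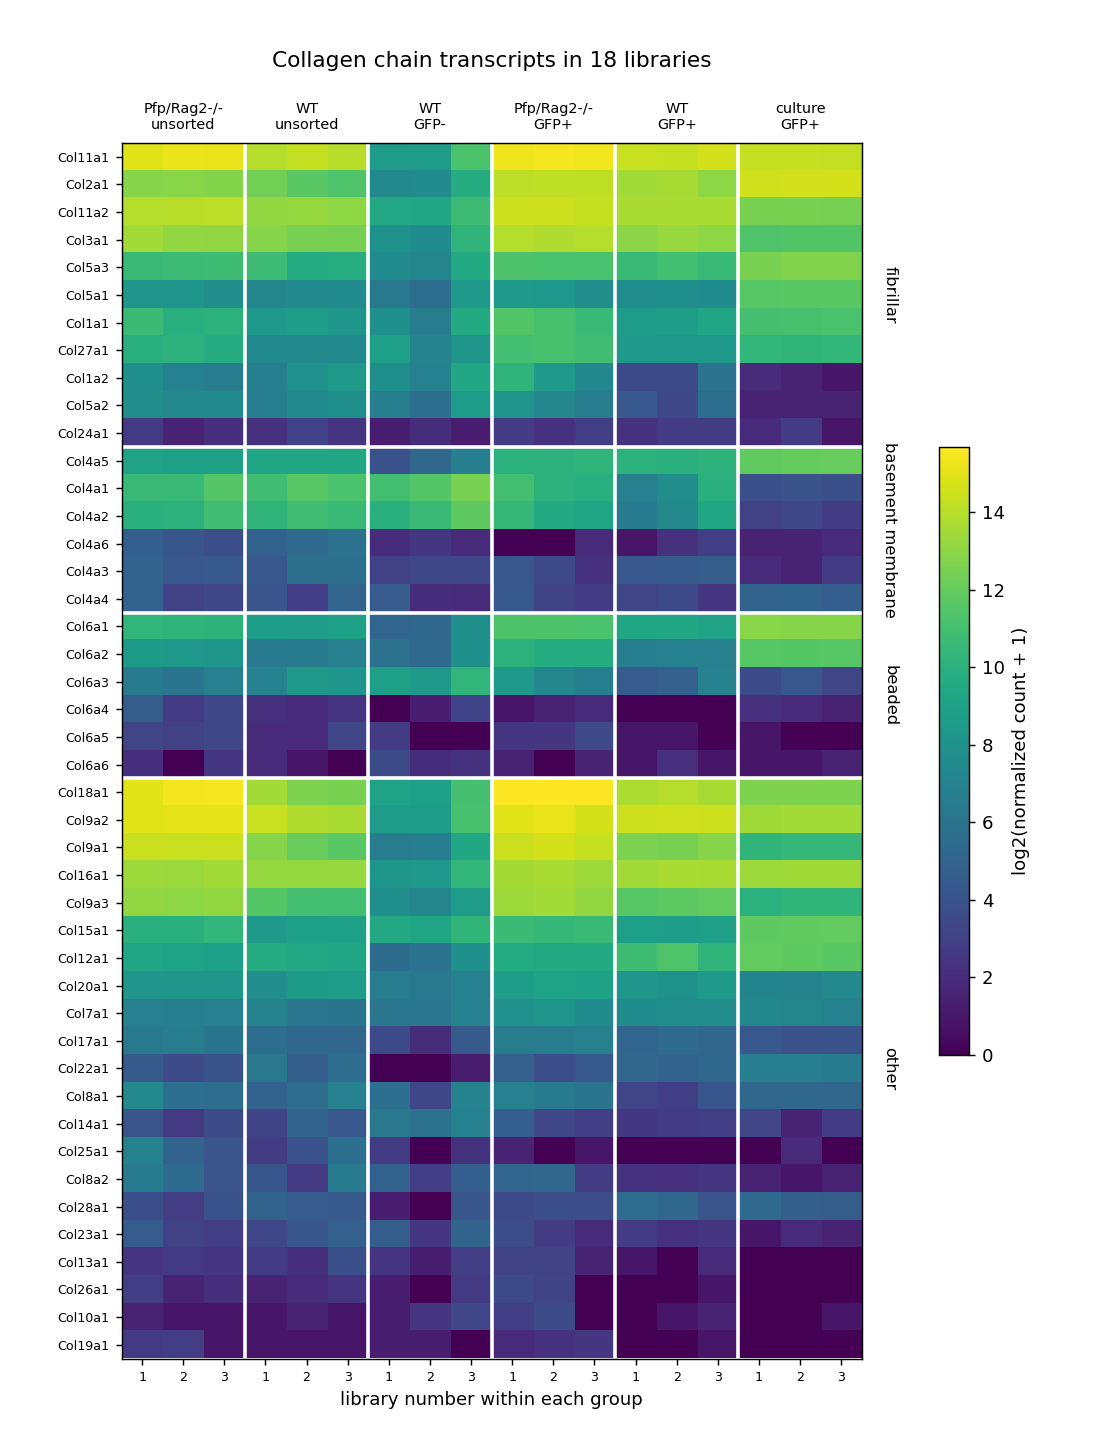
Level of all 44 chains (rows, by class and then by highest group mean) in 18 libraries (columns, 3 per group), as log2 of the normalized count plus 1. Within their rows, Col11a1, Col2a1, Col11a2, Col18a1, Col9a2 and Col16a1 are brighter in unsorted, GFP+ and cultured libraries than in GFP- libraries. Col4a1, Col4a2 and Col6a3 are brighter in GFP- libraries than in culture, with Col6a3 below Col11a2 in each GFP- library.

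The collagen set of the GFP+ tumour cells was led by chains of types IX, XVIII and XI in both hosts. Type XVI was among the 5 highest chains in WT cells only. Per kilobase (kb) of exon, the scale used here to compare chains, Col9a2 (type IX, a FACIT) was the highest chain in 5 of 6 groups, with 10623 ± 549 in Pfp/Rag2-/- unsorted, 5260.0 ± 1478 in WT unsorted, 10277 ± 1591 in Pfp/Rag2-/- GFP+, 7509 ± 293 in WT GFP+ and 3721 ± 81.8 in cultured cells (normalized counts per kb, mean ± SD, n = 3). In Pfp/Rag2-/- GFP+ cells Col18a1 came next at 7388 ± 163 per kb, then Col9a1 at 4535 ± 556, Col11a1 at 3338 ± 219 and Col11a2 at 3211 ± 264, the last pair within 1 SD of each other. In WT GFP+ cells the 4 chains after Col9a2 were Col18a1 at 2024 ± 219, Col11a2 at 1957 ± 10.7, Col16a1 at 1846 ± 95.1 and Col11a1 at 1749 ± 206, with neighbours less than 1 SD (the larger of the 2) apart other than Col11a2 and Col16a1. The order in culture was another, with Col2a1 second at 2729 ± 158 per kb followed by Col6a1 at 1682 ± 28.2. GFP- cells were led by Col4a1, the main chain of vascular basement membrane, at 480.1 ± 289 per kb, with Col9a2 at 323 ± 344 and Col4a2 at 309 ± 203, none of which differ beyond their spread. The 5 highest chains were the same 5 per kb of the longest transcript, except in Pfp/Rag2-/- unsorted cells, where 4 of 5 were shared.

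Collagen transcripts as a whole took a larger share of the library in tumours of Pfp/Rag2-/- hosts. The 44 chains made up 1.39%, 1.46% and 1.31% of all normalized counts in the Pfp/Rag2-/- GFP+ libraries, against 0.632%, 0.668% and 0.672% in WT GFP+ libraries. In unsorted cells they made up 1.04%, 1.11% and 1.14% for Pfp/Rag2-/- hosts, against 0.535%, 0.461% and 0.429% for WT hosts. The share was 0.0305%, 0.0285% and 0.110% in GFP- libraries and 0.593%, 0.610% and 0.612% in culture. The hosts' libraries did not overlap in either preparation. Most of this share belonged to the fibrillar chains, with 0.599% ± 0.0206 in Pfp/Rag2-/- GFP+ and 0.310% ± 0.00781 in WT GFP+ cells, and to the 21 chains of other types, with 0.750% ± 0.0556 and 0.334% ± 0.0126 in these groups.

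Between sorted GFP+ cells of the 2 hosts, 19 chains were higher and 2 lower in the Pfp/Rag2-/- host among the 30 of 44 that could be tested, and 9 were not called. Over all 14807 genes tested 30.4% were called, 15.0% higher and 15.3% lower (limma on log2 of the value plus 1, Benjamini-Hochberg adjusted p under 0.05). By class, 9 of 10 tested fibrillar chains, 0 of 4 type IV chains and 2 of 3 type VI chains were called higher, and of 13 others 8 were higher and 2 lower. The median log2 difference of the tested chains was 1.18, beside 0.016 over all genes. In unsorted cells 15 chains were higher and 3 lower among 36 tested, beside 14.8% and 15.1% of all 15448 genes (29.9% called), with a median of 0.53 for the chains and 0.048 for all genes. Of the chains called higher, 14 were called in both preparations, which is 14 of the 19 in sorted cells and 14 of the 15 in unsorted cells. Chains enter a test when 3 or more of its libraries reach a value of 10, so a chain can pass through the group where it is high. In bulk libraries fewer cells of a type and less RNA per cell cannot be told apart. Without Pfp/Rag2-/- unsorted library 2, 11 of the 18 unsorted calls were kept, and without WT unsorted library 3, 12 were. With all 18 libraries in 1 fit the sorted calls of Col2a1, Col3a1, Col5a3, Col9a2, Col11a1, Col12a1 and Col28a1 and the unsorted calls of Col2a1, Col3a1, Col4a5, Col5a1, Col6a3, Col9a2, Col11a1 and Col17a1 were lost.

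**Figure D2:**
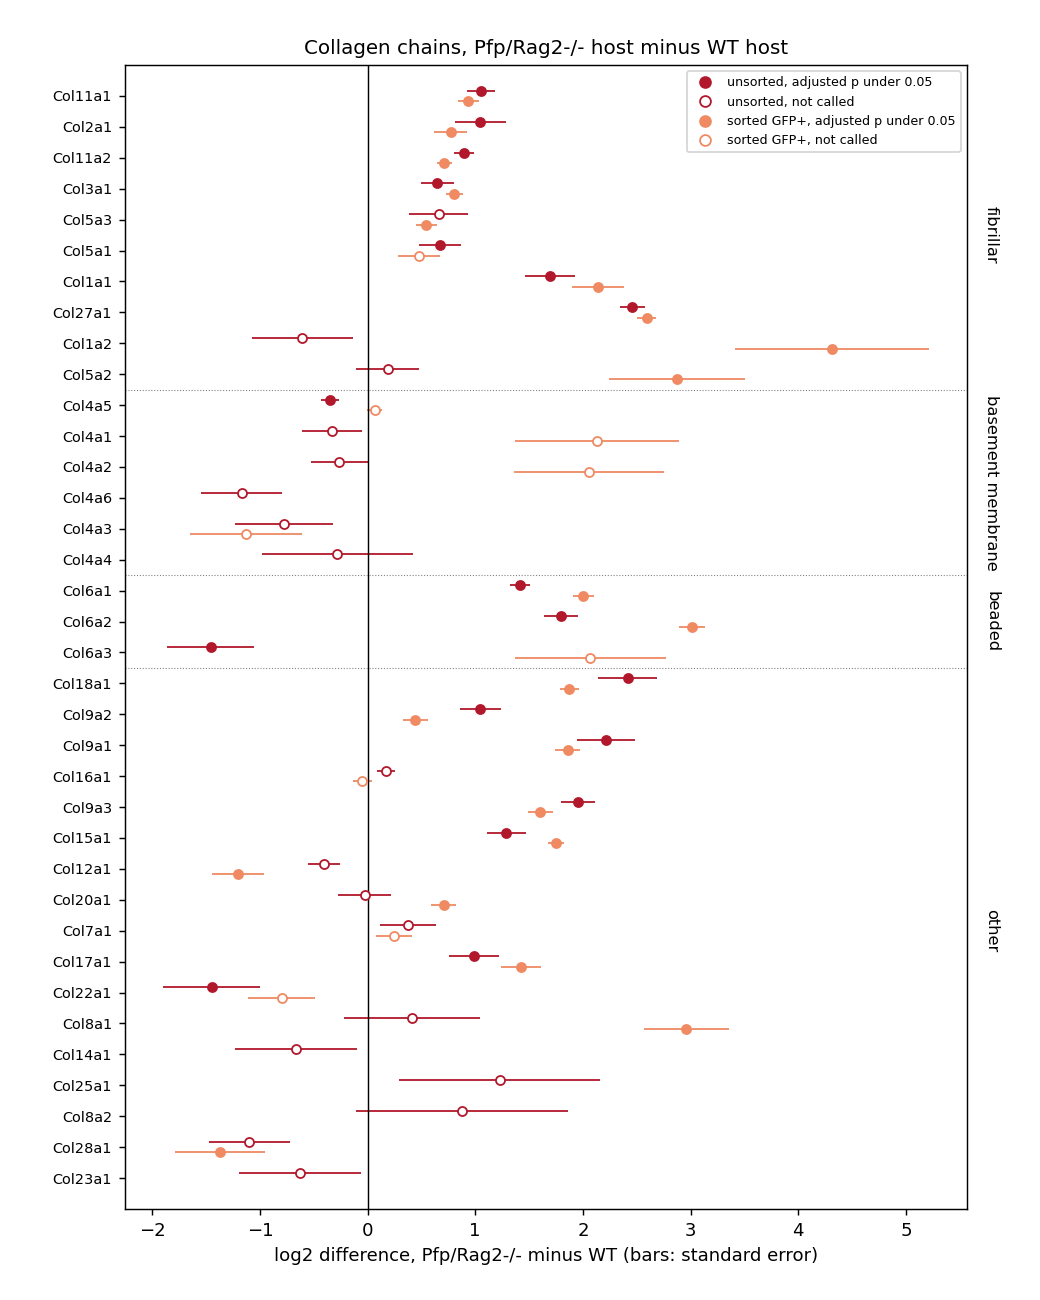
Log2 difference of each tested chain between Pfp/Rag2-/- and WT hosts, in unsorted cells (dark) and sorted GFP+ cells (light), with standard errors; filled points were called. Col27a1, Col18a1, Col9a1, Col9a3, Col15a1, Col1a1, Col6a1 and Col6a2 lie right of 1 in both preparations, while Col1a2, Col4a1, Col4a2 and Col6a3 lie right of 2 in sorted cells and left of 0 in unsorted cells.

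All 6 chains of the cartilage types II, IX and XI were higher in Pfp/Rag2-/- tumours, in sorted and in unsorted cells. Col9a1, a type IX chain, had 22290.3, 26081 and 20573 normalized counts in Pfp/Rag2-/- GFP+ libraries, against 6117, 5657 and 7268 in WT GFP+ libraries. In unsorted cells it had 21852, 20756 and 22304 for Pfp/Rag2-/- hosts, against 7398, 4165 and 3289 for WT hosts. No library of 1 host reached the range of the other, and the log2 differences were 1.86 (SE 0.12, adjusted p = 0.000175) in sorted and 2.21 (SE 0.27, adjusted p = 0.00154) in unsorted cells. Col9a3 had 10857, 11736 and 9075 in Pfp/Rag2-/- GFP+ libraries, against 3083, 3432 and 3885 in WT ones, and 9224, 8414 and 9064 in Pfp/Rag2-/- unsorted libraries, against 3001, 2060.2 and 1951 in WT ones, with log2 differences of 1.60 (SE 0.12) and 1.95 (SE 0.16). Col9a2 had 32996, 36030.5 and 26398 in Pfp/Rag2-/- GFP+ libraries, against 22928, 24264 and 22533 in WT ones, and 30979, 33395 and 34260.3 in Pfp/Rag2-/- unsorted libraries, against 21533, 14121 and 13185 in WT ones. Col9a2 moved least of the type IX chains, by 0.44 (SE 0.12, adjusted p = 0.0279) in sorted and 1.05 (SE 0.19, adjusted p = 0.00742) in unsorted cells. Its call in sorted cells was lost without Pfp/Rag2-/- library 1 (adjusted p = 0.0687) or 2 (0.0839), or without WT library 1 (0.0797), 2 (0.0679) or 3 (0.0526).

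Type XI chains, which make the core of thin cartilage fibrils, were among the most abundant collagen transcripts and were higher in both preparations. Col11a1 had 40227, 45646 and 41756 in Pfp/Rag2-/- GFP+ libraries, against 21290.5, 20299 and 25264 in WT GFP+ libraries, and 32691, 37602 and 36539.6 in Pfp/Rag2-/- unsorted libraries, against 15494, 19666 and 16506 in WT ones. Col11a2 had 23024, 23218 and 19977 in Pfp/Rag2-/- GFP+ libraries, against 13494, 13492 and 13366 in WT ones, and 15413, 16549.7 and 17484 in Pfp/Rag2-/- unsorted libraries, against 8911, 9338 and 8285 in WT ones. The hosts did not overlap for either chain: the log2 differences of Col11a1 were 0.94 (SE 0.10, adjusted p = 0.00104) and 1.05 (SE 0.13, adjusted p = 0.00176) in sorted and unsorted cells, and those of Col11a2 were 0.71 (SE 0.071, adjusted p = 0.000841) and 0.90 (SE 0.10, adjusted p = 0.000899). Col2a1, the main cartilage fibril chain, had 18134, 18478 and 18799.5 in Pfp/Rag2-/- GFP+ libraries, against 11769, 12883 and 8304 in WT ones. Unsorted libraries had 7445, 7595 and 6988 for Pfp/Rag2-/- hosts, against 5296, 3241 and 2611 for WT hosts. It was higher by 0.77 (SE 0.15, adjusted p = 0.0106) and 1.05 (SE 0.23, adjusted p = 0.0156), and the call in unsorted cells was lost without Pfp/Rag2-/- library 2 (adjusted p = 0.0629).

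Both multiplexins, types XV and XVIII, and the fibrillar chain of type XXVII were higher in the Pfp/Rag2-/- host as well. Col18a1, which holds endostatin, had 50553, 52397 and 52658 in Pfp/Rag2-/- GFP+ libraries, against 13959, 15861 and 12816 in WT GFP+ libraries, a ratio of means of 3.65. In unsorted cells it had 31757, 43969 and 46214 for Pfp/Rag2-/- hosts, against 11612, 6105 and 6010.0 for WT hosts. With more normalized counts than any other chain in Pfp/Rag2-/- GFP+ cells, Col18a1 differed by 1.87 (SE 0.086, adjusted p = 4.77e-05) in sorted and 2.41 (SE 0.28, adjusted p = 0.00125) in unsorted cells. Col15a1, its relative, had 1653, 1421 and 1603 in Pfp/Rag2-/- GFP+ libraries, against 471, 439 and 474 in WT ones, and 999, 983 and 1258 in Pfp/Rag2-/- unsorted libraries, against 337, 495 and 506 in WT ones, with differences of 1.75 (SE 0.075) and 1.29 (SE 0.18). Col27a1, a fibrillar chain known from growing cartilage, had 2046, 2251 and 1838 in Pfp/Rag2-/- GFP+ libraries, against 363, 328 and 322 in WT ones. Unsorted libraries had 949, 1082 and 853 for Pfp/Rag2-/- hosts, against 172, 166 and 183 for WT hosts. All 6 Pfp/Rag2-/- values stood above all 6 WT values, and its differences in sorted and unsorted cells were 2.59 (SE 0.090, adjusted p = 3.57e-05) and 2.46 (SE 0.12, adjusted p = 7.06e-05).

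Among the fibrillar chains of connective tissue the picture split by chain. Col3a1 had 15396, 14609 and 15474 in Pfp/Rag2-/- GFP+ libraries, against 8111, 9661 and 8292 in WT GFP+ libraries. Unsorted libraries had 11800.4, 9040.3 and 8489.8 for Pfp/Rag2-/- hosts, against 7192, 5850.5 and 5614 for WT hosts. It was higher by 0.81 (SE 0.076, adjusted p = 0.000702) in sorted and 0.65 (SE 0.15, adjusted p = 0.0189) in unsorted cells, and the second call was lost without Pfp/Rag2-/- library 2 (adjusted p = 0.0547), WT library 2 (0.0534) or WT library 3 (0.0645). Col1a1, the main chain of type I collagen, had 2786, 2223 and 1489 in Pfp/Rag2-/- GFP+ libraries, against 406, 444 and 594 in WT ones, and 1684, 938 and 1095 in Pfp/Rag2-/- unsorted libraries, against 354, 449.8 and 319 in WT ones, with differences of 2.14 (SE 0.24) and 1.69 (SE 0.23). Its partner Col1a2 had 1194, 345 and 158 in Pfp/Rag2-/- GFP+ libraries, against 10.5, 10.5 and 62.6 in WT ones. Unsorted libraries had 222, 116 and 97.4 for Pfp/Rag2-/- hosts, against 107, 242 and 343 for WT hosts. Col1a2 was thus far higher in sorted Pfp/Rag2-/- cells, by 4.31 (SE 0.90, adjusted p = 0.0129), while the unsorted libraries of the hosts overlapped, with a difference of -0.61 (SE 0.47, adjusted p = 0.362). The sorted difference was 3.53 or 4.98 when Pfp/Rag2-/- library 1 or 3 was left out and 5.14 when WT library 3 was, and it lost its call without WT library 2 (adjusted p = 0.0528).

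Type V chains, which regulate fibril width, differed among themselves too. Col5a3 had 2526, 2467 and 2353 in Pfp/Rag2-/- GFP+ libraries, against 1497, 1954 and 1612 in WT GFP+ libraries. Unsorted libraries had 1560.0, 1709 and 1793 for Pfp/Rag2-/- hosts, against 1733, 792 and 884 for WT hosts. It was called in sorted cells only (0.55, SE 0.10, adjusted p = 0.00765, against 0.66, SE 0.27, adjusted p = 0.108 in unsorted cells). Col5a1 had 353, 326 and 214 in Pfp/Rag2-/- GFP+ libraries, against 202, 228 and 198 in WT ones. Unsorted libraries had 294, 303 and 212 for Pfp/Rag2-/- hosts, against 137, 182 and 185 for WT hosts. Its difference was 0.48 (SE 0.19, adjusted p = 0.104) in sorted cells and 0.67 (SE 0.19, adjusted p = 0.0375) in unsorted cells, where the call was lost without Pfp/Rag2-/- library 1 (adjusted p = 0.109) or 2 (0.138) and without WT library 1 (0.0542), 2 (0.0599) or 3 (0.0619). Col5a2 had 291, 152 and 94.9 in Pfp/Rag2-/- GFP+ libraries, against 19.2, 9.50 and 50.6 in WT ones. Unsorted libraries had 211, 168 and 174 for Pfp/Rag2-/- hosts, against 101, 181 and 226 for WT hosts. It was higher by 2.87 (SE 0.63, adjusted p = 0.0156) in sorted cells, with a call lost without Pfp/Rag2-/- library 2 (adjusted p = 0.0548) and a difference of 3.48 without WT library 3, and differed by 0.19 (SE 0.29, adjusted p = 0.654) in unsorted cells.

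Of the type VI chains, Col6a1 and Col6a2 were higher in the Pfp/Rag2-/- host and Col6a3 was not. Col6a1 had 2566, 2475 and 2358 in Pfp/Rag2-/- GFP+ libraries, against 631, 691 and 529.5 in WT GFP+ libraries, and 1265, 1175 and 1113 in Pfp/Rag2-/- unsorted libraries, against 431, 414 and 486 in WT ones. Col6a2 had 1075, 828 and 855 in Pfp/Rag2-/- GFP+ libraries, against 105, 119 and 112 in WT ones, and 368, 322 and 309 in Pfp/Rag2-/- unsorted libraries, against 84.9, 90.9 and 111 in WT ones. Both chains separated the hosts in each preparation, Col6a1 by 2.00 (SE 0.10) and 1.42 (SE 0.10), and Col6a2 by 3.02 (SE 0.12, adjusted p = 3.57e-05) and 1.79 (SE 0.16, adjusted p = 0.000440). Col6a3, the large chain that completes the classical type VI molecule, had 359, 152 and 107 in Pfp/Rag2-/- GFP+ libraries, against 23, 26.6 and 121 in WT ones. Unsorted libraries had 86.2, 65.2 and 115 for Pfp/Rag2-/- hosts, against 125, 359.9 and 302 for WT hosts. In sorted cells its hosts overlapped and it was not called (2.07, SE 0.70, adjusted p = 0.0623), and in unsorted cells it was lower in the Pfp/Rag2-/- host (-1.46, SE 0.41, adjusted p = 0.0338). That lower call was lost without Pfp/Rag2-/- library 1 (adjusted p = 0.0783), 2 (0.118) or 3 (0.0564) and without WT library 2 (0.0913) or 3 (0.0985).

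No type IV chain was called between hosts in sorted cells. Col4a1 had 2033, 1065 and 918 in Pfp/Rag2-/- GFP+ libraries, against 112, 208 and 1008 in WT GFP+ libraries, and 1549, 1557 and 2862 in Pfp/Rag2-/- unsorted libraries, against 1843, 3075 and 2412 in WT ones. Col4a2, which joins Col4a1 in the common type IV molecule, had 1395, 755 and 616 in Pfp/Rag2-/- GFP+ libraries, against 85.2, 163 and 637 in WT ones, and 978, 1088 and 1847 in Pfp/Rag2-/- unsorted libraries, against 1179, 1905 and 1505 in WT ones. WT GFP+ library 3 stood within the Pfp/Rag2-/- range for both chains, and the differences were 2.13 (SE 0.76, adjusted p = 0.0732) for Col4a1 and 2.06 (SE 0.70, adjusted p = 0.0634) for Col4a2 in sorted cells, and -0.33 (SE 0.28, adjusted p = 0.401) and -0.26 (SE 0.26, adjusted p = 0.488) in unsorted cells. Col4a5, a chain of kidney and brain surface basement membrane, had 1047, 1096 and 1160.5 in Pfp/Rag2-/- GFP+ libraries, against 1016, 1013 and 1128 in WT ones. Unsorted libraries had 513, 483 and 481 for Pfp/Rag2-/- hosts, against 614, 611 and 658 for WT hosts. It differed by 0.066 (SE 0.068, adjusted p = 0.496) in sorted cells and was lower by a small amount in unsorted cells, -0.35 (SE 0.084, adjusted p = 0.0200), a call lost without Pfp/Rag2-/- library 2 (adjusted p = 0.0890) or 3 (0.0736) or WT library 3 (0.0798).

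The remaining abundant chains are 3 FACITs and Col7a1, and they were lower, higher or not called. Col12a1, which binds to type I fibrils, had 808, 749 and 775 in Pfp/Rag2-/- GFP+ libraries, against 1779, 2619 and 1228 in WT GFP+ libraries. Unsorted libraries had 621, 549 and 466 for Pfp/Rag2-/- hosts, against 840.5, 706 and 618 for WT hosts. It was lower in sorted Pfp/Rag2-/- cells (-1.20, SE 0.24, adjusted p = 0.0116), where no other of the 24 abundant chains was called lower, and it was not called in unsorted cells (-0.40, SE 0.15, adjusted p = 0.0813). Col16a1 had 12106, 13324 and 10840.2 in Pfp/Rag2-/- GFP+ libraries, against 11785, 13063 and 12537 in WT ones. Unsorted libraries had 10548, 10383 and 11493 for Pfp/Rag2-/- hosts, against 9419, 9419 and 9853 for WT hosts. Its level was among the highest of all chains, and its differences were -0.048 (SE 0.085) and 0.18 (SE 0.084), neither called. Col20a1 had 442, 514 and 503 in Pfp/Rag2-/- GFP+ libraries, against 296, 263 and 337 in WT ones, and 287, 313 and 312 in Pfp/Rag2-/- unsorted libraries, against 204, 368 and 396 in WT ones, and was called higher in sorted cells (0.71, SE 0.11, adjusted p = 0.00524, against -0.028, SE 0.25, adjusted p = 0.941 in unsorted cells). Col7a1, the chain of the anchoring fibrils of skin, had 241, 296 and 189.7 in Pfp/Rag2-/- GFP+ libraries, against 194, 202 and 205 in WT ones, and 114, 109 and 113 in Pfp/Rag2-/- unsorted libraries, against 128, 71.1 and 68.8 in WT ones. The hosts overlapped in both preparations, and it was not called (0.25, SE 0.16, adjusted p = 0.293 in sorted and 0.38, SE 0.26, adjusted p = 0.304 in unsorted cells).

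**Figure D3:**
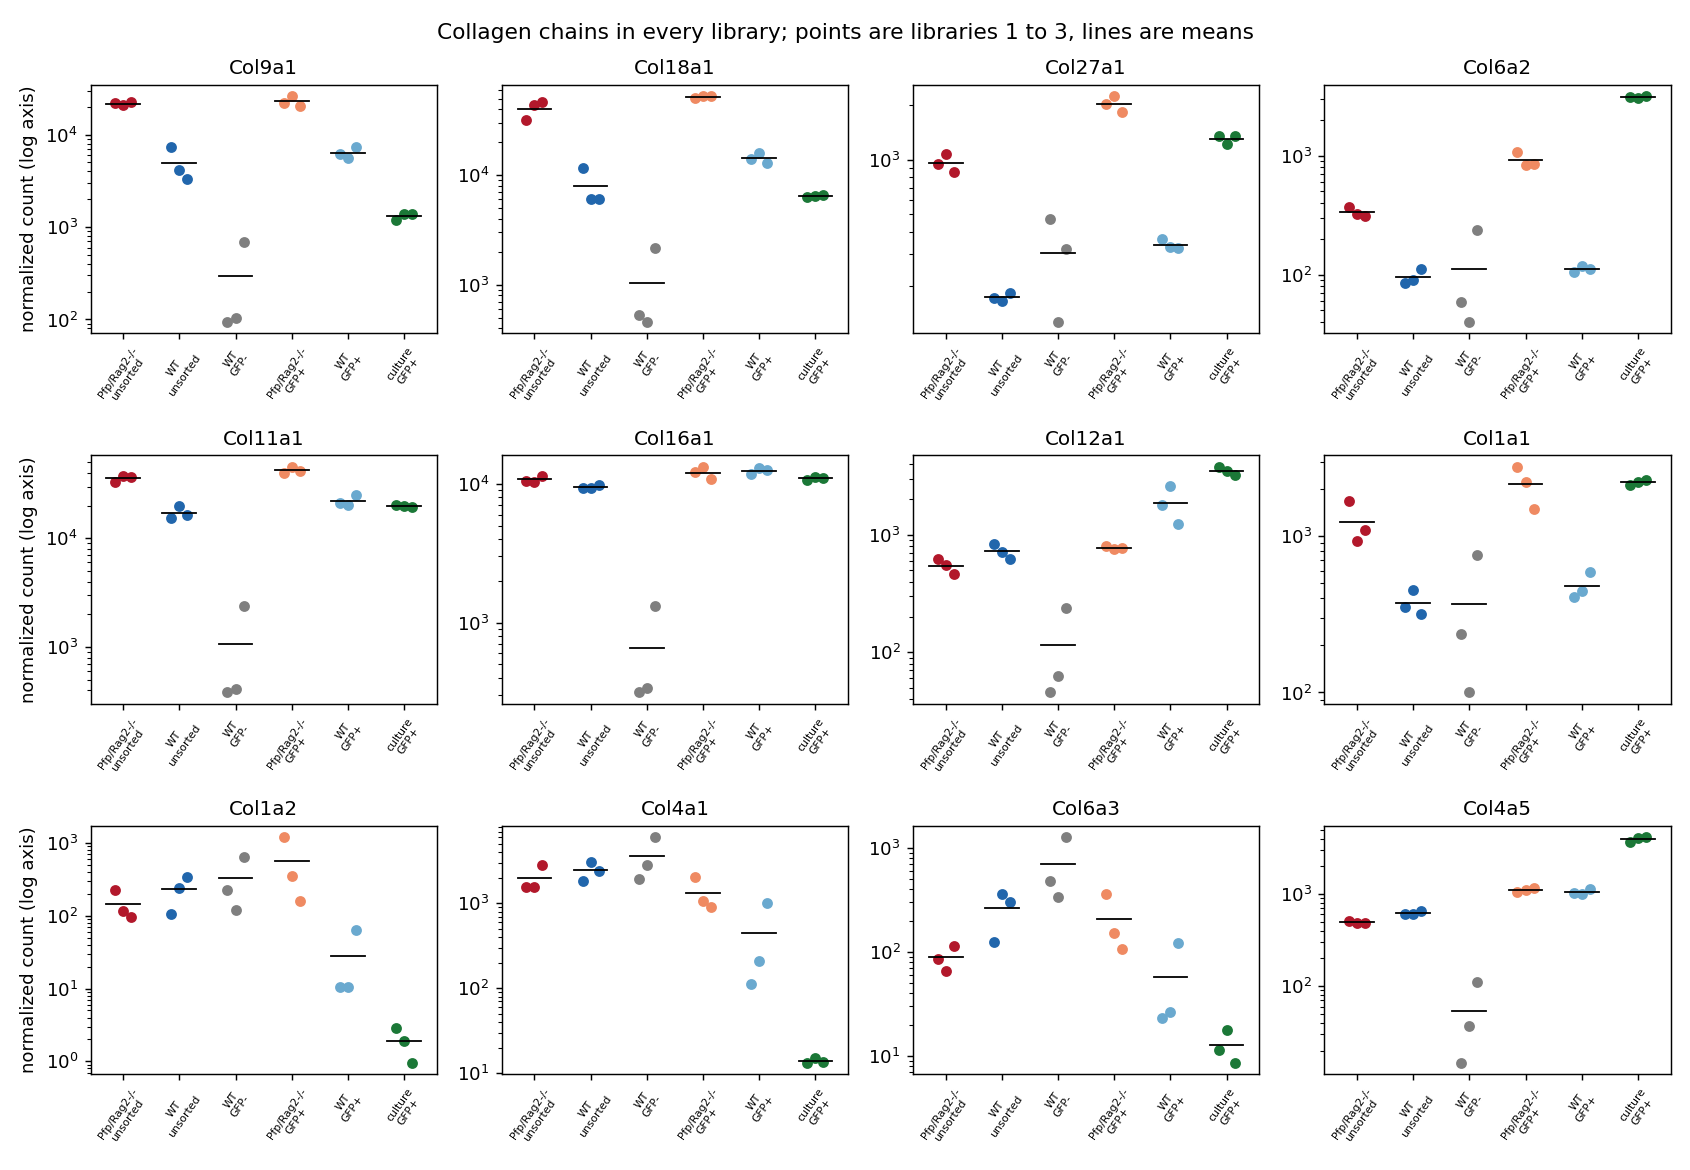
Normalized counts (log axis) of 12 chains in every library, with group means as lines. Col16a1 lies level across the Pfp/Rag2-/- and WT tumour groups and culture, Col9a1 and Col18a1 lie higher in both Pfp/Rag2-/- groups, and Col1a2, Col4a1 and Col6a3 spread widely within the WT GFP+ group, where library 3 has 62.6, 1008 and 121 counts.

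Of the 20 chains whose mean stayed under 200 in every group, 7 had no group mean of 10 or more, and 5 were called between hosts, Col5a2 as given above and Col8a1, Col17a1, Col22a1 and Col28a1. Col8a1, a short chain of vessel and eye membranes, had 115, 83.6 and 64.5 in Pfp/Rag2-/- GFP+ libraries, against 8.62, 6.65 and 17.5 in WT GFP+ libraries, a difference of 2.96 (SE 0.39, adjusted p = 0.00253). Unsorted libraries had 167, 52.5 and 48.7 for Pfp/Rag2-/- hosts, against 29.5, 48.6 and 124 for WT hosts. There the hosts overlapped and Col8a1 was not called (0.41, SE 0.63, adjusted p = 0.650). Col17a1, a transmembrane chain of epithelial anchoring, had 95.9, 98.3 and 113 in Pfp/Rag2-/- GFP+ libraries, against 33.5, 44.7 and 35 in WT ones, and 80.0, 94.2 and 67.6 in Pfp/Rag2-/- unsorted libraries, against 48.9, 36 and 35.7 in WT ones. It was higher in both preparations, by 1.43 (SE 0.19, adjusted p = 0.00238) and 0.99 (SE 0.23, adjusted p = 0.0180), and the second call was lost without Pfp/Rag2-/- library 1 (adjusted p = 0.0505) or 2 (0.0856) or WT library 2 (0.0522) or 3 (0.0589). Col28a1 had 10.0, 12.9 and 12 in Pfp/Rag2-/- GFP+ libraries, against 47.9, 39 and 16.6 in WT ones. Its lower call (-1.37, SE 0.42, adjusted p = 0.0454) was lost without any 1 library other than WT library 3, with adjusted p-values of 0.100 to 0.138. Col22a1 had 20.4, 11.8 and 15.3 in Pfp/Rag2-/- unsorted libraries, against 76.6, 23.4 and 47 in WT ones, and its lower call (-1.45, SE 0.45, adjusted p = 0.0476) was lost without Pfp/Rag2-/- library 1 (adjusted p = 0.0656), 2 (0.149) or 3 (0.117) and without WT library 1 (0.0832) or 3 (0.116). In sorted cells it had 26.5, 12.9 and 21.2, against 35.4, 30.4 and 37.8, and was not called (-0.80, SE 0.31, adjusted p = 0.0919).

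Whether the host difference itself differed between sorted and unsorted cells was tested as an interaction over the 12 libraries, in which 36 chains were tested. Only Col6a2 was called, with a host difference larger in sorted cells by 1.22 (SE 0.19, adjusted p = 0.0264), beside 0.934% of all 16161 genes called in either direction. It was not called without Pfp/Rag2-/- GFP+ library 1 (adjusted p = 0.0838) or 3 (0.0815), WT GFP+ library 1 (0.0606) or 2 (0.0892), Pfp/Rag2-/- unsorted library 1 (0.0634), 2 (0.0932) or 3 (0.0653), or WT unsorted library 3 (0.0712). The point estimates were larger for Col1a2 (4.92, SE 1.13, adjusted p = 0.0592) and Col6a3 (3.53, SE 0.90, adjusted p = 0.0723) but did not pass, so these chains are not shown to differ between preparations. Leaving out WT GFP+ library 3 gave 9 called chains and leaving out WT unsorted library 1 gave 11.

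In sorted GFP+ cells, markers of other cells moved with some of these chains. Endothelial markers low in culture summed to 1751, 731 and 814 in Pfp/Rag2-/- GFP+ libraries 1 to 3, against 279, 242 and 842 in WT GFP+ libraries. The 6 of 15 mural cell and fibroblast markers low in culture (Abcc9, Dcn, Dpt, Kcnj8, Lum and Rgs5) summed to 949, 454 and 372 in Pfp/Rag2-/- GFP+ libraries, against 67, 70.3 and 235 in WT ones. Library 1 of the Pfp/Rag2-/- host and library 3 of the WT host were the highest of their groups for both sums, and they were also the highest for Col1a2, Col4a1, Col4a2, Col5a2 and Col6a3. Over the whole lists, the 15 endothelial markers summed to 5232, 3200.0 and 3279.7 in Pfp/Rag2-/- GFP+ libraries, against 1876, 1962 and 3252 in WT ones, and the 15 mural and fibroblast markers, led by Cspg4, to 11862, 11106 and 10189, against 5208, 5140.1 and 7097. Cspg4 also led the second sum in cultured cells. Dpt was at 0 in all WT GFP+ and GFP- libraries, and Kcnj8 in all cultured ones. The 6 oligodendrocyte markers summed to 11029, 9444 and 9557 in Pfp/Rag2-/- GFP+ libraries, against 4379.5, 4374 and 9929.9 in WT ones, and 3 of them were called higher, while cultured cells, in which Mbp led the list, had 35896 to 38172. Astrocyte markers low in culture (Aqp4 and Slc1a2 of 5) summed to 343, 254 and 282, against 57.5, 13.3 and 337. All 5 astrocyte markers summed to 2190, 2278 and 1980, against 1635, 1564 and 2808, with 0 called higher and 1 lower. WT library 3 was the highest of its group for the oligodendrocyte and astrocyte lists too. In unsorted cells macrophage and microglia markers summed to 6448 to 7782 in Pfp/Rag2-/- tumours, against 20863 to 22842 in WT tumours. All 15 endothelial markers summed there to 5045 to 8062, against 5743 to 7189. Those low in culture summed to 1853, 1940 and 2898, against 2522, 2905 and 2621, with overlap. The 6 mural and fibroblast markers low in culture summed to 1416, 1414 and 2316, against 357, 991 and 1199, without overlap. Rgs5 had the highest mean of these 6 in unsorted cells, with 1393 for Pfp/Rag2-/- hosts, against 617 for WT hosts. Of the whole list of 15 markers, 14 were tested there, and 3 were called higher and 3 lower in the Pfp/Rag2-/- host. Anpep (mean 53.0, against 370) and Acta2 (82.5, against 228) had lower means in that host. In sorted cells macrophage and microglia markers summed to 8079, 1554 and 1506 in Pfp/Rag2-/- GFP+ libraries, against 8228, 2357 and 5072 in WT ones. The part of these cells in the host differences was not tested.

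Chains that join in 1 molecule did not always run together. On the scale of levels per kb, Col4a2 over Col4a1 was 0.483 to 0.886 over all 18 libraries, the narrowest range among the pairs plotted, even though Col4a1 itself spanned 13.2 to 6018 normalized counts. Col1a2 over Col1a1 was 0.226, 0.0821 and 0.0562 in Pfp/Rag2-/- GFP+ libraries, against 0.0137, 0.0124 and 0.0557 in WT GFP+ libraries, and 0.442 to 0.634 in GFP- libraries. In culture it was 0.000219 to 0.000700 and cultured cells held 2138, 2230.3 and 2303 normalized counts of Col1a1 and 2.83, 1.89 and 0.954 of Col1a2. The same held for type V, where Col5a2 over Col5a1 was 0.912 to 1.16 in GFP- libraries and 0.000514 to 0.000529 in culture, and for type VI, where Col6a3 over Col6a1 was 2.04 to 5.14 in GFP- libraries and 0.000432 to 0.000896 in culture. In these 3 types the cultured tumour cells thus held 1 chain at 2138 normalized counts or more and a partner at 17.9 or fewer. Among the type IX chains, Col9a1 over Col9a2 was 0.413, 0.442 and 0.476 in Pfp/Rag2-/- GFP+ libraries, against 0.163, 0.142 and 0.197 in WT ones, and 0.431, 0.380 and 0.398 in Pfp/Rag2-/- unsorted libraries, against 0.210, 0.180 and 0.152 in WT ones.

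**Figure D4:**
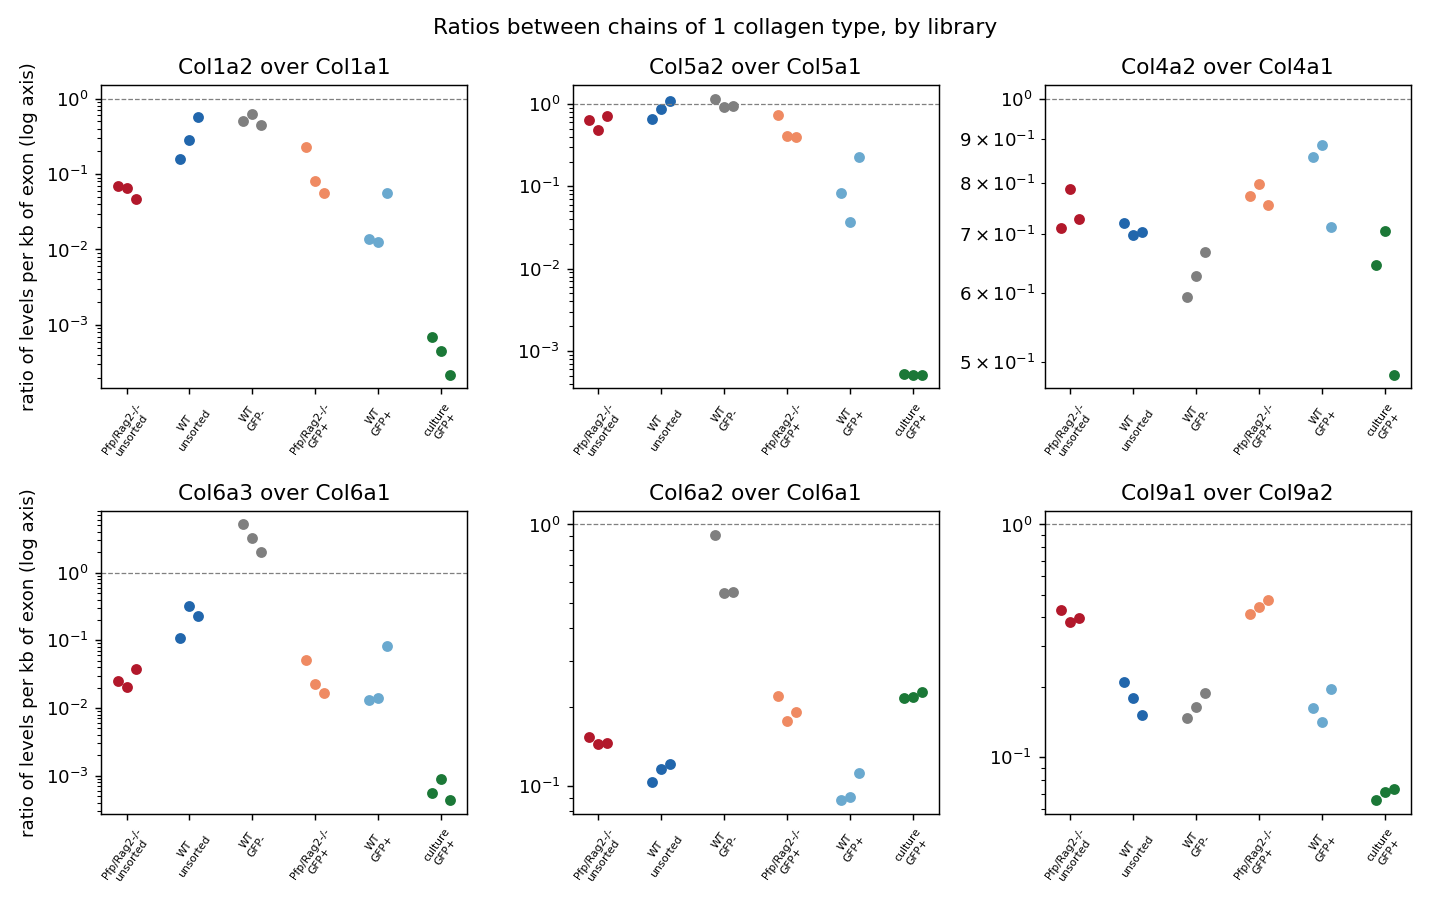
Ratio between the levels per kb of exon of chains that share a collagen type, in every library (log axes with a scale for each panel; the dashed line marks equal levels). Col4a2 over Col4a1 stays between 0.483 and 0.886, whereas Col1a2 over Col1a1, Col5a2 over Col5a1 and Col6a3 over Col6a1 lie between 0.000219 and 0.000896 in culture and have their highest library in the GFP- group.

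Sorted GFP- cells of WT tumours, the fraction that should hold host cells, held a different set. Against WT GFP+ cells, 7 chains were higher and 19 lower among 31 tested, beside 42.7% and 33.7% of all 16083 genes (76.4% called), and the median log2 difference was -1.93 for the chains and 0.19 for all genes. The second median depends on the scaling (0.075 with TMM factors, -0.22 with quantile normalization). The higher chains were Col1a2, Col4a1, Col4a2, Col5a2, Col6a3, Col14a1 and Col15a1. Of chains of the same types, Col1a1, Col5a1 and Col6a2 were not called, and Col4a3, Col4a5, Col5a3 and Col6a1 were lower. GFP- libraries 1 to 3 had 1920.2, 2813 and 6018 normalized counts of Col4a1 and 1009, 1565 and 3562 of Col4a2, against the WT GFP+ values given above, differences of 3.47 (SE 0.84, adjusted p = 0.00812) and 3.09 (SE 0.79, adjusted p = 0.0107). Col6a3 had 475, 337 and 1262 there (3.77, SE 0.76, adjusted p = 0.00366), Col1a2 had 228, 120.2 and 636 (3.68, SE 0.87, adjusted p = 0.00760), and Col5a2 had 104, 52.4 and 388 (2.55, SE 0.87, adjusted p = 0.0332). GFP- library 3 was the highest of the 3 for each of these chains. Without WT GFP+ library 3 the differences were 4.38 for Col4a1, 3.90 for Col4a2, 4.51 for Col6a3, 4.50 for Col1a2 and 3.16 for Col5a2. Without WT GFP+ library 1 they were 2.80 for Col4a1 and 2.46 for Col4a2, and without GFP- library 3 the difference of Col1a2 was 3.03.

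Col14a1, a FACIT of fibroblasts, had 78, 57 and 117 in GFP- libraries, against 4.79, 5.70 and 6.45 in WT GFP+ libraries (3.62, SE 0.35, adjusted p = 0.000181). It reached the filter value only in GFP- libraries, so a call could only be higher there. Col15a1 had 711, 587 and 1241 and differed by 0.80 (SE 0.27, adjusted p = 0.0325). The calls of Col5a2 and Col15a1 each depended on single libraries. Col5a2 was lost without GFP- library 1 (adjusted p = 0.0709) or 3 (0.0686) and without WT GFP+ library 1 (0.0722) or 2 (0.0992), and its difference was 3.19 without GFP- library 2. Col15a1 was lost without GFP- library 1 (0.0556) and without WT GFP+ library 1 (0.0645), 2 (0.0853) or 3 (0.0745), and with TMM scaling (0.0507).

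The 19 lower chains include those most abundant in GFP+ cells. Col2a1 had 179.5, 186 and 855 in GFP- libraries, Col11a1 had 383, 414 and 2373 and Col9a2 had 388, 382 and 2231, differences from WT GFP+ cells of -5.14 (SE 0.60, adjusted p = 0.000374), -4.94 (SE 0.68, adjusted p = 0.000707) and -5.07 (SE 0.67, adjusted p = 0.000583). Col9a1 had 94.2, 103 and 689 (-5.06, SE 0.74), Col9a3 225, 148 and 402 (-3.85, SE 0.35), and Col11a2 699, 666 and 1689.5 (-3.86, SE 0.35). In GFP- cells these chains thus lay at a small share of their WT GFP+ level, and library 3 was the highest for every 1 of them. Col3a1 had 271, 194 and 1231 (-4.43, SE 0.65), Col18a1 525, 458 and 2155 (-4.14, SE 0.57), and Col16a1 313, 334 and 1320.0 (-4.59, SE 0.54). Col12a1 had 45.6, 63.2 and 238 (-4.32, SE 0.63), Col4a5 14.7, 37 and 110.4 (-4.70, SE 0.66), Col5a3 188, 143 and 742 (-2.62, SE 0.59) and Col6a1 33.8, 38.5 and 226 (-3.18, SE 0.71). Type III collagen, best known from fibroblasts, thus stood with types II, IX and XI in these libraries. Without GFP- library 3 the differences widened to -5.88 for Col2a1, -5.23 for Col3a1, -5.43 for Col4a5, -3.34 for Col5a3, -4.05 for Col6a1, -5.99 for Col9a1, -5.91 for Col9a2, -5.80 for Col11a1, -5.03 for Col12a1, -5.26 for Col16a1 and -4.85 for Col18a1. Without GFP- library 1 that of Col4a5 was -4.02.

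Col20a1 had 97.1, 78.6 and 125 in GFP- libraries (-1.58, SE 0.23), and the 5 other lower chains, Col4a3, Col7a1, Col17a1, Col22a1 and Col28a1, had differences of -4.74 to -1.20. Of these, Col4a3 and Col22a1 reached the filter value only in WT GFP+ libraries, so a call could only be lower in GFP- cells. Col28a1 was called although its fractions overlapped. Col17a1 lost its call without GFP- library 1 (adjusted p = 0.0603) and without WT GFP+ library 1 (0.0508), 2 (0.0759) or 3 (0.0623), and its difference was -1.28 without GFP- library 2. Col28a1 lost its call without GFP- library 1 (0.0944) or 2 (0.0801) and without WT GFP+ library 1 (0.0780) or 2 (0.0806), and its differences without GFP- libraries 2 and 3 were -2.28 and -4.37. Chains that were not called overlapped between the fractions: Col1a1 had 238, 100.1 and 759.9 in GFP- libraries, Col5a1 79.5, 50.8 and 363, Col6a2 58.9, 40.1 and 238 and Col27a1 472, 126 and 318, and Col8a1 was the fifth. A p that misses the threshold does not show equal levels.

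Unsorted cells hold both fractions and were set against sorted GFP+ cells of the same host. In WT tumours 7 chains were higher and 10 lower in unsorted than in GFP+ cells among 32 tested, beside 10.3% and 6.46% of all 15275 genes (16.8% called). The higher ones were Col1a2 (3.36), Col4a1 (3.05), Col4a2 (2.85), Col4a6 (3.34), Col5a2 (2.87), Col6a3 (2.47) and Col8a1 (2.37), on the log2 scale. Col4a5 (-0.74, SE 0.088, adjusted p = 0.00754) and Col27a1 (-0.96, SE 0.12, adjusted p = 0.00761) were the 2 calls kept whichever library was left out. When WT GFP+ library 3 was left out, the differences were 4.18 for Col1a2, 3.96 for Col4a1, 3.66 for Col4a2, 3.48 for Col5a2 and 3.22 for Col6a3, and when library 1 was, 2.38 for Col4a1 and 2.21 for Col4a2. Leaving out 1 library gave 9 calls without WT GFP+ library 1, 6 without WT GFP+ library 2, 5 without WT unsorted library 2 and 2 without WT unsorted library 3. In Pfp/Rag2-/- tumours 2 chains were higher and 12 lower among 34 tested, beside 19.1% and 11.1% of all 15324 genes (30.2% called). The 2 higher ones were Col4a6, with 24.9, 17.2 and 12.6 in unsorted libraries, against 0, 0 and 2.76 in GFP+ libraries (3.58, SE 0.64, adjusted p = 0.00736), and Col25a1, a neuronal transmembrane chain, with 124, 30.8 and 16.2, against 1.83, 0 and 0.921 (4.54, SE 0.78, adjusted p = 0.00640). Without Pfp/Rag2-/- GFP+ library 3 the difference of Col4a6 was 4.22, and that of Col25a1 was 3.74 and 5.17 without unsorted libraries 1 and 3. With so few reads in GFP+ libraries these fitted differences depend on the pseudocount. Both chains reached the filter value only in unsorted libraries, so a call could only be higher there. Col4a6 entered the test of WT tumours in the same way. Neuronal markers summed to 5108, 1637 and 1435 in Pfp/Rag2-/- unsorted libraries 1 to 3, against 313, 397 and 349 in GFP+ libraries, and their part in the level of Col25a1 was not tested. The lower chains of the Pfp/Rag2-/- host ran between -1.46 for Col6a2 and -0.42 for Col11a2.

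Most collagen chains differed between GFP+ cells from tumours of either host and cultured cells, with Col5a1, Col6a1, Col6a2 and Col15a1 among the lower chains and Col3a1, Col18a1 and the type IX chains among the higher. In WT GFP+ cells 15 chains were higher and 13 lower than in culture among 30 tested, beside 30.3% and 35.3% of all 14261 genes (65.6% called). In Pfp/Rag2-/- GFP+ cells 17 were higher and 11 lower among 30 tested, beside 35.1% and 37.1% of all 14487 genes (72.2% called). Both comparisons use the same 3 cultured libraries, so their values stand side by side here and their likeness is not counted. With all 18 libraries in 1 fit the WT calls of Col4a4, Col7a1, Col8a1, Col9a2, Col12a1 and Col16a1 and the Pfp/Rag2-/- calls of Col2a1, Col4a4, Col8a1, Col11a1, Col27a1 and Col28a1 were lost, and with quantile normalization the WT calls of Col1a2, Col6a3 and Col17a1.

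**Figure D5:**
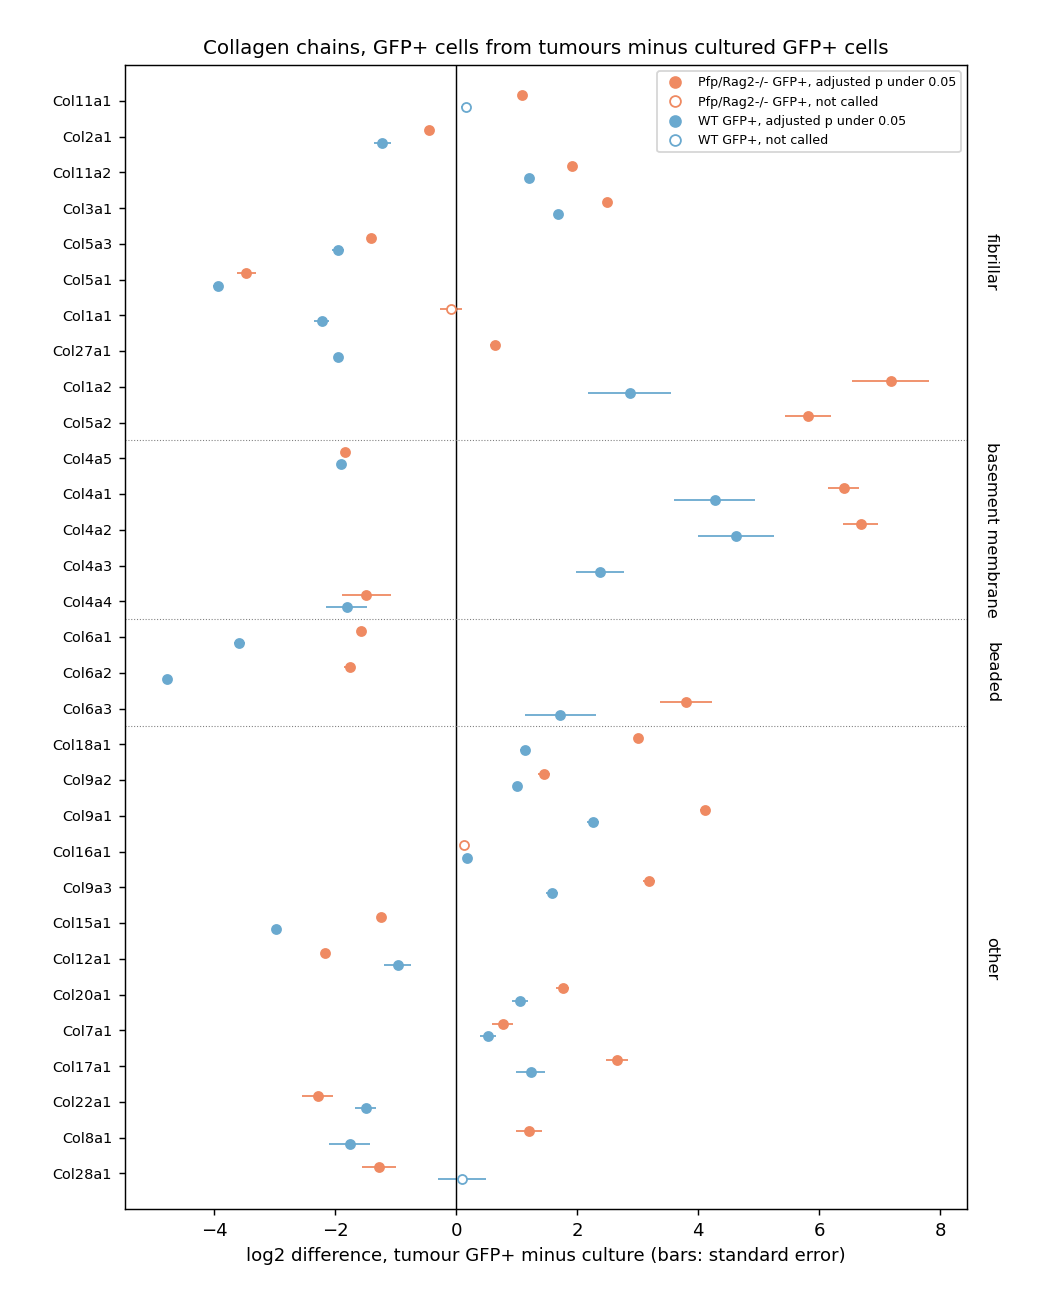
Log2 difference of each tested chain between sorted GFP+ tumour cells and cultured GFP+ cells, for Pfp/Rag2-/- (orange) and WT hosts (blue), with standard errors; filled points were called. Col6a1, Col6a2, Col5a1 and Col15a1 lie left of -1 for both hosts, and the Pfp/Rag2-/- points lie right of the WT points for these chains and for Col27a1 and Col1a1.

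Cultured cells were rich in type VI chains. Culture libraries had 7508, 7318 and 7276 normalized counts of Col6a1 and 3092, 3032 and 3163 of Col6a2, and 11.3, 17.9 and 8.59 of Col6a3. Col6a1 differed from culture by -1.58 (SE 0.041) on the log2 scale in Pfp/Rag2-/- GFP+ cells and by -3.58 (SE 0.089) in WT GFP+ cells, and Col6a2 by -1.76 (SE 0.089) and -4.78 (SE 0.069) in these cells, where a negative value means lower in the tumour. Col15a1, with 3576, 3626 and 3784 in culture, differed by -1.23 (SE 0.059) in Pfp/Rag2-/- and -2.99 (SE 0.055) in WT cells, and Col5a1, with 3164, 3241 and 3287, by -3.47 (SE 0.16) and -3.94 (SE 0.069). Of the type IV chains, Col4a5 had 3631, 4036 and 4139 in culture and was lower in the tumour by a like amount in both hosts, -1.84 (SE 0.060) in Pfp/Rag2-/- and -1.90 (SE 0.068) in WT cells. Col12a1 had 3791, 3485 and 3234 (-2.17, SE 0.062 in Pfp/Rag2-/- and -0.97, SE 0.23 in WT cells), Col5a3 had 6028, 6779 and 6655 (-1.40, SE 0.053 and -1.95, SE 0.10 in the same cells), and Col2a1 had 23675, 25399 and 26588 (-0.45, SE 0.049 and -1.22, SE 0.14).

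In the opposite direction, Col9a1 had 1206, 1369 and 1385 in culture and was higher by 4.12 (SE 0.087) in Pfp/Rag2-/- GFP+ cells and by 2.26 (SE 0.10) in WT GFP+ cells. Col9a3 had 1049, 1207 and 1202 (3.19, SE 0.094 in Pfp/Rag2-/- and 1.58, SE 0.092 in WT cells), and Col9a2 had 11258, 11764 and 11532 (1.45, SE 0.10 and 1.01, SE 0.049). All 3 type IX chains were thus higher in tumours of each host than in culture, with no overlap between libraries. Col18a1 had 6308, 6470.5 and 6532 in culture (3.01, SE 0.038 and 1.14, SE 0.074), Col3a1 2623, 2699 and 2775 (2.49, SE 0.040 and 1.68, SE 0.069), and Col11a2 5955, 5857 and 5735 (1.91, SE 0.059 and 1.20, SE 0.041, each Pfp/Rag2-/- before WT). Col11a1 had 20223, 19955 and 19475 and was called for the Pfp/Rag2-/- host only (1.10, SE 0.053, adjusted p = 2.30e-07, against 0.16, SE 0.080, adjusted p = 0.110 for WT), while Col16a1 had 10638, 11296 and 11029 and differed by 0.13 (SE 0.069) and 0.18 (SE 0.053). The small call of Col16a1 in the WT host was lost without culture library 1 (adjusted p = 0.0613) or 3 (0.0523). Col20a1 had 136, 130.1 and 163 in culture (1.76, SE 0.11 in Pfp/Rag2-/- and 1.06, SE 0.13 in WT cells).

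Col1a1 and Col27a1 set the hosts apart against culture. Col1a1 differed by -0.084 (SE 0.18, adjusted p = 0.699) in Pfp/Rag2-/- GFP+ cells, where its libraries overlapped with culture, and by -2.22 (SE 0.13, adjusted p = 1.71e-06) in WT GFP+ cells. Col27a1, with 1349, 1226 and 1349 in culture, was higher by 0.64 (SE 0.075, adjusted p = 6.14e-05) in Pfp/Rag2-/- cells and lower in WT cells (-1.95, SE 0.074, adjusted p = 1.98e-07). The direct test of the hosts given above, called for both chains, is the test of that difference. Type IV chains that were low in culture went in different directions, with Col4a1 and Col4a2 higher in tumours of both hosts and Col4a4, a chain of kidney basement membrane, lower. Cultured libraries held 13.2, 15.1 and 13.4 normalized counts of Col4a1 and 7.56, 9.43 and 5.72 of Col4a2, and the differences were 6.40 (SE 0.26) in Pfp/Rag2-/- and 4.28 (SE 0.67) in WT cells for Col4a1 and 6.68 (SE 0.30) and 4.63 (SE 0.63) for Col4a2. Col4a4 had 30.2, 32.1 and 24.8 in culture and differed by -1.48 (SE 0.41) in Pfp/Rag2-/- and -1.81 (SE 0.33) in WT cells. Col5a2, with 1.89, 1.89 and 1.91 in culture, differed by 5.81 (SE 0.38) in Pfp/Rag2-/- cells and was too low to be tested in WT cells. For Col1a2 and Col5a2, with under 3 normalized counts in each cultured library, the fitted differences depend on the pseudocount. Col1a2, Col4a2 and Col5a2 reached the filter value only in tumour libraries, so a call could only be higher there. The same held for Col4a3, called higher in WT cells, with 18.2, 20.9 and 23.9 in WT GFP+ libraries and 2.83, 1.89 and 5.72 in culture. Without WT GFP+ library 3 the WT differences were 3.37 for Col4a1, 3.82 for Col4a2, 2.04 for Col1a2 (all libraries 2.87) and 0.98 for Col6a3 (all libraries 1.72), and without WT GFP+ library 1 they were 4.95 for Col4a1 and 5.26 for Col4a2. The call of Col6a3 in WT cells was lost without culture library 1 (adjusted p = 0.0888) or 3 (0.102). In Pfp/Rag2-/- cells Col1a2 differed by 7.18, by 6.40 without library 1 and by 7.85 without library 3. Endothelial and mural markers in these GFP+ libraries are given above.

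The proteins that make, link and clear collagen did not move as a block between hosts. Of 27 processing genes, 24 were tested in sorted cells and 7 were higher and 7 lower in the Pfp/Rag2-/- host, where 15.0% of all genes were called higher and 15.3% lower. The higher ones included P4ha3, a prolyl 4-hydroxylase subunit (1.03), and P3h3 and P3h2, prolyl 3-hydroxylases (0.70 and 0.69). The lower ones included Adamts14, an aminopropeptidase (-1.34), Pcolce, which enhances removal of the C-propeptide (-0.59), and P4ha1 (-0.58). Crosslinking and assembly genes were 5 higher and 2 lower of 10 tested. Dcn, a small proteoglycan of fibroblasts (4.95, SE 0.39, adjusted p = 0.000352), Lox, the lysyl oxidase (3.48, SE 0.49, adjusted p = 0.00309), and Bgn (2.11, SE 0.44, adjusted p = 0.0131) led the higher ones, and Fn1, fibronectin, was lower (-2.29, SE 0.13, adjusted p = 0.000101), as was Sparc (-0.48). Dcn is also 1 of the fibroblast markers counted above. It had 98.6, 121 and 85.7 in Pfp/Rag2-/- GFP+ libraries, against 2.87, 0.950 and 3.68 in WT ones. Dcn thus reached the filter value only in Pfp/Rag2-/- libraries, so a call could only be higher there, and its fitted difference depends on the pseudocount. Receptors were 2 higher, Itga10 (1.27) and Ddr1 (0.57), and 2 lower, Itga1 (-1.10) and Ddr2 (-0.61), of 10 tested. Degradation genes were 2 higher (Mmp14 0.69, Mmp15 0.69) and 3 lower (Timp4 -0.61, Mmp2 -0.51, Timp1 -0.37) of 12 tested. Laminins and other basement membrane partners were 3 higher (Agrn 0.76, Lama5 0.59, Lamc1 0.22) and 3 lower (Lama4 -0.88, Lamb1 -0.78, Hspg2 -0.46) of 11 tested.

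In unsorted cells the same lists gave 2 higher and 4 lower of 25 processing genes, 3 and 1 of 12 crosslinking and assembly genes, 2 and 3 of 10 receptors, 1 and 1 of 12 degradation genes and 2 and 1 of 12 basement membrane partners, beside 14.8% higher and 15.1% lower over all genes. Fn1 was lower there too (-1.98, SE 0.33, adjusted p = 0.00512) and Agrn higher (1.01, SE 0.15, adjusted p = 0.00344), and Mmp13, a collagenase, was lower (-4.80, SE 0.44, adjusted p = 0.000512), as was the leukocyte collagen receptor Lair1 (-1.82, SE 0.12, adjusted p = 0.000154). In GFP- cells 17 of 24 processing genes were lower than in WT GFP+ cells and 3 higher, beside 33.7% and 42.7% of all genes, led downwards by Pcolce (-4.87), Pcolce2 (-4.12) and the chaperone Fkbp10 (-3.95). Degradation genes split there into 7 higher, among them Mmp13 (5.80), Mmp9 (5.18) and Mmp8 (4.98), and 6 lower of 13 tested, among them the membrane proteases Mmp16 (-5.12) and Mmp15 (-4.59). Relative to culture, processing genes were 7 higher and 14 lower of 24 in Pfp/Rag2-/- GFP+ cells and 6 higher and 15 lower of 23 in WT GFP+ cells, beside 35.1% and 37.1%, and 30.3% and 35.3%, of all genes in these comparisons, with P4ha3 lowest in both (-3.01 and -4.04) and Pcolce higher in both (1.29 and 1.88).

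Several chains are neighbours in the genome, and neighbours did not all move alike. Names and positions are those of GENCODE vM21 on GRCm38. Col4a1 (11198423 to 11312826, minus strand) and Col4a2 (11312805 to 11449287, plus strand) lie head to head on chromosome 8. Their annotated starts overlap by 22 bases, and this was the pair with the steady ratio. Col4a4 and Col4a3, 71 bases apart, and Col4a6 and Col4a5, 1308 bases apart, also lie head to head. Against culture, Col4a3 was called higher and Col4a4 lower in WT GFP+ cells. Col4a5 had 1047, 1096 and 1160.5 normalized counts in Pfp/Rag2-/- GFP+ libraries, where Col4a6 had 0, 0 and 2.76. Head-to-head neighbours thus did not all run together. Col3a1 and Col5a2 lie tail to tail on chromosome 1, 24614 bases apart, but Col5a2 over Col3a1 per kb was 0.276 to 0.395 in GFP- libraries and 0.000704 to 0.000737 in culture. Col6a2 and Col6a1 lie 85161 bases apart on the minus strand of chromosome 10, and their ratio was 0.176 to 0.220 in Pfp/Rag2-/- GFP+ libraries, against 0.0878 to 0.112 in WT GFP+ libraries. Whether the authors' read counter used the strand is not given in the sources used here, so reads from the shared bases of Col4a1 and Col4a2 could not be told apart.

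Promoter sequence is shown for 4 chains that moved with the host in sorted cells and stand for the cartilage FACITs, the type XI fibrils, type III and type VI. RefSeq start sites (build GRCm38.p6) could be matched for 35 of 44 chains. The 250 bases before the start are printed 5′ to 3′ in the direction of the gene, for Col9a1 at chr1:24177360-24177609 on the plus strand, Col11a1 at chr3:114030290-114030539 on the plus strand, Col3a1 at chr1:45311288-45311537 on the plus strand and Col6a2 at chr10:76623631-76623880 on the minus strand. Capitals mark matches on either strand to 4 motifs: the TATA box (TATAAA), the CCAAT box (CCAAT), the GC box (GGGCGG) and a core of SOX factor sites (ACAAT).
Col9a1: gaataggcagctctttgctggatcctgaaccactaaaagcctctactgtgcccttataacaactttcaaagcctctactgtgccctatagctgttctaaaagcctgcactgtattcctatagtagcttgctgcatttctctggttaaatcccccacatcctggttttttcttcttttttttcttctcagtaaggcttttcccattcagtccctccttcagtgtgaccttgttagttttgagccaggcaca
Col11a1: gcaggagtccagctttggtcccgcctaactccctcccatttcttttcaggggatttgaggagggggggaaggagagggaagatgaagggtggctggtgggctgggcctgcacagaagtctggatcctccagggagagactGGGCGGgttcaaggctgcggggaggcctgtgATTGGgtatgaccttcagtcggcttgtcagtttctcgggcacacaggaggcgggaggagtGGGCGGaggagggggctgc
Col3a1: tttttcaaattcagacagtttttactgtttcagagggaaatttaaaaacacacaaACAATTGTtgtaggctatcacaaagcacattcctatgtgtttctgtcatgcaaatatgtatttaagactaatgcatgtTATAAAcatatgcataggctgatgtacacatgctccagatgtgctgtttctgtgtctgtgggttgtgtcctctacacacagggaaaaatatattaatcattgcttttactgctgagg
Col6a2: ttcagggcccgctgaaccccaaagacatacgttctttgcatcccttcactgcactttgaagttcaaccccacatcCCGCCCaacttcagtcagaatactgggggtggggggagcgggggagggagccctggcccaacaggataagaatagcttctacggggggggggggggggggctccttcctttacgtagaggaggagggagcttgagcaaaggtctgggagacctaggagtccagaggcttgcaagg
Col9a1 has none of the 4 motifs in this stretch, Col11a1 has 1 CCAAT box and 2 GC boxes, Col3a1 has 1 TATA box and 2 SOX cores that share 2 bases, and Col6a2 has 1 GC box. Motifs were counted over the 250 bases before each start. A chain was counted when any of its windows held the motif (38 windows for 35 chains), while the shares of all windows count single windows. The GC box was found in 21 of the 35 chains (60%), against 32.7% of all 32851 windows. The CCAAT box was found in 13 of 35 chains (37.1%), against 33.8% of all windows, and the TATA box in 5 of 35 (14.3%), against 12.4%. The SOX core was found in 2 of 35 chains (5.71%), Col3a1 and Col28a1, against 27.7% of all windows. These are letter matches and not measured sites.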

How the data were processed

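RNA-seq of 18 libraries in 6 groups of 3 was used. Per the submitters' processing notes, reads were aligned with STAR 2.5.2b to GRCm38 and DESeq2 was used. Read counter, annotation release and strand setting: not given in the sources used here. The deposited values are normalized counts, a signal per gene that the authors made by dividing read counts by 1 size factor per library: all values but 2, both in GFP- library 3, were whole multiples of 1 step per library (within 0.05 reads), so whole reads were recovered (19172814 to 21141662 per library), and size factors ran between 0.649 and 0.761 in GFP- and 1.04 and 1.15 in other libraries. With 3 libraries a group, precision is limited by their spread.

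Names, exon lengths and positions came from GENCODE vM21, which named 48435 of 48795 gene IDs. Values were tested as log2(value + 1) with limma 3.58.1 (R 4.3.3; lmFit and eBayes with trend, two-sided) on the groups compared, over all genes with a value of at least 10 in at least 3 libraries fitted. P-values were adjusted by Benjamini-Hochberg over all genes tested, and a gene was called at an adjusted p under 0.05. Fold changes are on this log2 scale, which understates the change of low genes. The code was tested on simulated data. Alternatives were a pseudocount of 10, no filter or a filter of 50, TMM and quantile scaling, all 18 libraries in 1 fit, a replicate block, each library left out in turn, and count tests of recovered reads by edgeR 4.0.16 and by DESeq2 1.42.0; leaving out both GFP+ libraries numbered 1 was added after seeing the data. Same-numbered libraries of the sorted host groups deviated together (r = 0.102 to 0.616 over genes). However, Pfp/Rag2-/- library 3 correlated more with WT library 2 (0.443) than with WT library 3 (0.102). What the numbers share is thus not settled there, and the main fits used no pairing.

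The members and lists were chosen with earlier results of these data known. Every chain could be named; per-library values are given for chains with a mean of at least 200 in a group or called between hosts, and from the other lists up to 3 genes at each end that were called without overlap. Markers low in culture were picked after their values were seen. RefSeq promoters (GRCm38.p6) were used. Python 3.11.15 with pandas 2.3.3 and matplotlib 3.10.9 made the tables and plots. No sample was left out.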

Additional observations from a re-analysis of the deposited data

Results flagged for a closer look

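The host difference of Col6a2 was larger in sorted GFP+ cells than in unsorted cells, by 1.22 (SE 0.19) on the log2 scale, and the test of the difference itself passed (limma, adjusted p = 0.0264). The ratio of means between Pfp/Rag2-/- and WT hosts was 8.20 in sorted and 3.48 in unsorted cells, and all 3 Pfp/Rag2-/- libraries lay above all 3 WT libraries in each preparation. The call was absent without 8 of the 12 libraries and with all 18 libraries in 1 fit (adjusted p = 0.334).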

How the results depend on the processing

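No difference that was called, with all libraries or under an alternative, changed sign. Over single chains, 3906 recomputed differences kept direction and side of the threshold, 200 lost the call and 100 gained one, and 69 that were not called in either fit changed sign, among them Col20a1 in unsorted and Col16a1 in sorted cells between hosts. With all 18 libraries in 1 fit, called chains between hosts fell to 10 (against 18) in unsorted cells, those between Pfp/Rag2-/- unsorted and GFP+ cells to 7 (against 14) and the interaction to 0 (against 1). Without both GFP+ libraries numbered 1, WT unsorted against GFP+ gave 9 calls (against 17) and the interaction 0. The interaction gave 2 calls with a filter of 50, 4 with quantile normalization and 7 with DESeq2. The cause of these shifts was not tested. Leaving out 1 library gave 18 to 23 calls between hosts in sorted cells and 11 to 21 in unsorted cells, 22 to 28 for GFP- against GFP+, 2 to 21 for WT and 14 to 17 for Pfp/Rag2-/- unsorted against GFP+, 26 to 29 for WT and 28 to 29 for Pfp/Rag2-/- GFP+ against culture, and 0 to 11 for the interaction.

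With the replicate block the calls numbered 21 between hosts in sorted cells (all 21 shared with the fit without it), 17 in unsorted cells (16 of 18 shared, Col4a5 and Col5a1 lost), 26 for GFP- against GFP+, where Col28a1 was lost, 13 for WT and 16 for Pfp/Rag2-/- unsorted against GFP+, 28 in each comparison with culture and 1 for the interaction. Same-numbered unsorted libraries of the hosts did not all correlate (r = -0.410 to 0.109) and are taken to share only a number. GFP- and GFP+ libraries of WT tumours carry the same numbers and their same-numbered pairs correlated weakly (r = 0.0679 to 0.320), but GFP- library 2 correlated more with GFP+ library 1 (0.180). The labels do not say if a number marks 1 tumour, so pairing of these fractions is not settled. Chains under a value of 10 are limited by depth and were not tested.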
